A study of Mus musculus with 12 samples.

Results

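Gfap, Aqp4, Gja1, Gjb6, Slc1a2, Slc1a3, Glul, Mlc1, Hepacam and S100b are 10 genes on which much of the identity of a mature astrocyte rests. They were followed across 4 laser-captured parts of the hippocampus of the mouse, namely the layer of neuronal cell bodies and the layer of dendrites in field CA1 and in the neighbouring field CA2. The members were taken by name, and each was read from the array feature that the platform annotation gives to that gene alone. Of the 10 genes, 9 had such a feature, and they are 9 of the 30142 genes measured in this way. Glul lay on a feature annotated with several genes and was not used here. Each of the 9 had exactly 1 usable feature, so no choice between features by level was needed.

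Astrocytes clear glutamate from the extracellular space, share ions and metabolites through gap junctions, and wrap capillaries with endfeet in which water and ion channels are gathered. In the hippocampus their fine processes fill the neuropil between the dendrites, while the pyramidal cell layer is packed with neuronal somata and holds fewer astrocyte bodies. The members cover these functions: Slc1a2 (GLT-1) and Slc1a3 (GLAST) are glutamate transporters of the astrocyte membrane. Gja1 (connexin 43) and Gjb6 (connexin 30) form its gap junctions. Aqp4 is the water channel of the endfoot, and Mlc1 and Hepacam are membrane partners at contacts between astrocytes. Gfap is the astrocyte intermediate filament, and S100b is a small calcium-binding protein also known from cells of the oligodendrocyte lineage.

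RNA came from 3 male mice aged 6 to 8 weeks, each from a different litter, of the Amigo2-EGFP reporter line on a C57BL/6J background. All 4 groups carry this reporter, in which Amigo2, a gene high in CA2 neurons, drives EGFP, and no group was treated. Each group holds 3 arrays (written 1, 2 and 3), and each piece pooled about 20 capture caps with 5 sections of 8 µm on a cap. Between 5 and 7 ng of RNA per piece was amplified before labelling. All values are the authors' normalised log2 expression, on which a step of 1 is a 2-fold difference, and SDs are over the 3 arrays of a group. A captured piece holds neurons, glia and vessels together, so fewer cells of a type and less RNA per cell cannot be told apart in any value given here.

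Several features of the arrays bear on these results. The CA2 arrays were labelled with another run number than the CA1 arrays, and when CA2 is set against CA1 the region cannot be told apart from the run. Layers were compared within 1 run, and a run effect of the same size in both layers drops out of the difference between layer differences. On 3 CA2 arrays (cell body array 1 and dendritic arrays 2 and 3), a list of 17 oocyte genes had a mean of 7.19 to 7.34, against 5.49 to 5.87 on the other 9 arrays, and CA2 results are also given without those 3 arrays (the oocyte-marked arrays). That leaves 2 arrays in the CA2 cell body group and 1 in the CA2 dendritic group, so its tests take their spread from the other groups and assume that the lone array varies as theirs do. Far fewer genes were then called: 18.9% of all genes between the layers of CA2, 2.32% in the interaction, 15.7% between the cell body layers and 6.36% between the dendritic layers. Neuronal markers were checked against the labels of the pieces. In the cell body layer, Amigo2 was higher in CA2 by 2.83 and Pcp4 by 3.79, and Wfs1 was lower by 2.72 on the log2 scale. Neurod6, a pyramidal neuron gene, was lower in the dendritic than in the cell body layer by 2.57 in CA1 and by 3.18 in CA2. Arrays have no read depth, and with 3 in a group their number limits how small a difference can be called.

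The stretch just upstream of 4 members is shown because these genes take up the ends of the pattern described next. Gfap had the largest rise and Gja1 the smallest measured one. S100b was the only member whose layer difference was called different between the regions, and Slc1a3 carried a letter match. Each run is the 250 bases before the RefSeq start (build GRCm38.p6), 5′ to 3′ on the gene's strand, with motif matches in capitals. Gfap lies at chr11:102897201-102897450 on the minus strand, Gja1 at chr10:56377050-56377299 on the plus strand, S100b at chr10:76253586-76253835 on the plus strand and Slc1a3 at chr15:8710808-8711057 on the minus strand.
Gfap: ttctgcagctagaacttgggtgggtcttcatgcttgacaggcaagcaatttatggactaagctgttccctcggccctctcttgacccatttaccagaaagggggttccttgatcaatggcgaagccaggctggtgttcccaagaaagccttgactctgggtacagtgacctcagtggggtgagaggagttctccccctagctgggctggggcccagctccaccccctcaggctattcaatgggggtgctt
S100b: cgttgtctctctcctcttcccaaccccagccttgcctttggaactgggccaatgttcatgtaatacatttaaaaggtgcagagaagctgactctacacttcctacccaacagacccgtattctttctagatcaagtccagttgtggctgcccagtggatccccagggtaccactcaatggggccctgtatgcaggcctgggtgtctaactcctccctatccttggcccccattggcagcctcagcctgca
Slc1a3: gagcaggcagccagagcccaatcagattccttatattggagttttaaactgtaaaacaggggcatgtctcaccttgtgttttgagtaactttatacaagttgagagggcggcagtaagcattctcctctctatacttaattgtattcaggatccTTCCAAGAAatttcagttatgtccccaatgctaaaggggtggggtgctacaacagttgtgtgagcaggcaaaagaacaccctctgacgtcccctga
Gja1: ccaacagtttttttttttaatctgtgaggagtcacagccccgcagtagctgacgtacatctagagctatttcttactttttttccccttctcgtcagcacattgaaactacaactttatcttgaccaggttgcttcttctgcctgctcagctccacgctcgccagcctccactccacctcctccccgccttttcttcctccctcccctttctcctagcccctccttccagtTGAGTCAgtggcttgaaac
Windows of 8 of the members were searched, and none was read for Aqp4. Searched on both strands, the NFI palindrome was in 0 of these 8 windows and in 0.703% of 32851 windows of the same length, and the SOX letters ACAATG were in 0 of 8 and in 10.7%. The STAT letters TTCNNNGAA were in 1 of 8 (Slc1a3, as TTCCAAGAA, starting 96 bases before the gene's start) and in 7.02% of all windows. The AP-1 letters TGANTCA were in 1 of 8 (Gja1, as TGAGTCA, 19 bases before the start) and in 6.75% of all windows. The 8 windows had a GC content of 44.8 to 56.8%. A match describes letters only.

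All 9 members were higher in the dendritic layer than in the cell body layer, in CA1 and again in CA2. In CA1 the differences ran from 1.02 for Gja1 to 3.28 for Gfap, which is 2.03-fold to 9.74-fold, and their median was 2.41. In CA2 they ran from 0.87 (Gja1) to 3.24 (Gfap), with a median of 2.08. No member's arrays overlapped between the layers in either region, but the share of all genes without such overlap was not counted. The limma test called 9 of 9 higher at an adjusted p under 0.05 in each region. Layers differ widely in this tissue: 28.3% of all genes were called higher in the dendritic layer in CA1 (46.9% in either direction) and 16.2% in CA2 (34.0% in either direction), while the medians over all genes were 0.12 and -0.03. All 9 members were called in each of the 25 alternative analyses of both regions. In the alternative without the oocyte-marked arrays the CA2 differences, resting on 1 dendritic array, were 0.87 (Gja1) to 3.11 (Gfap).

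**Figure D1:**
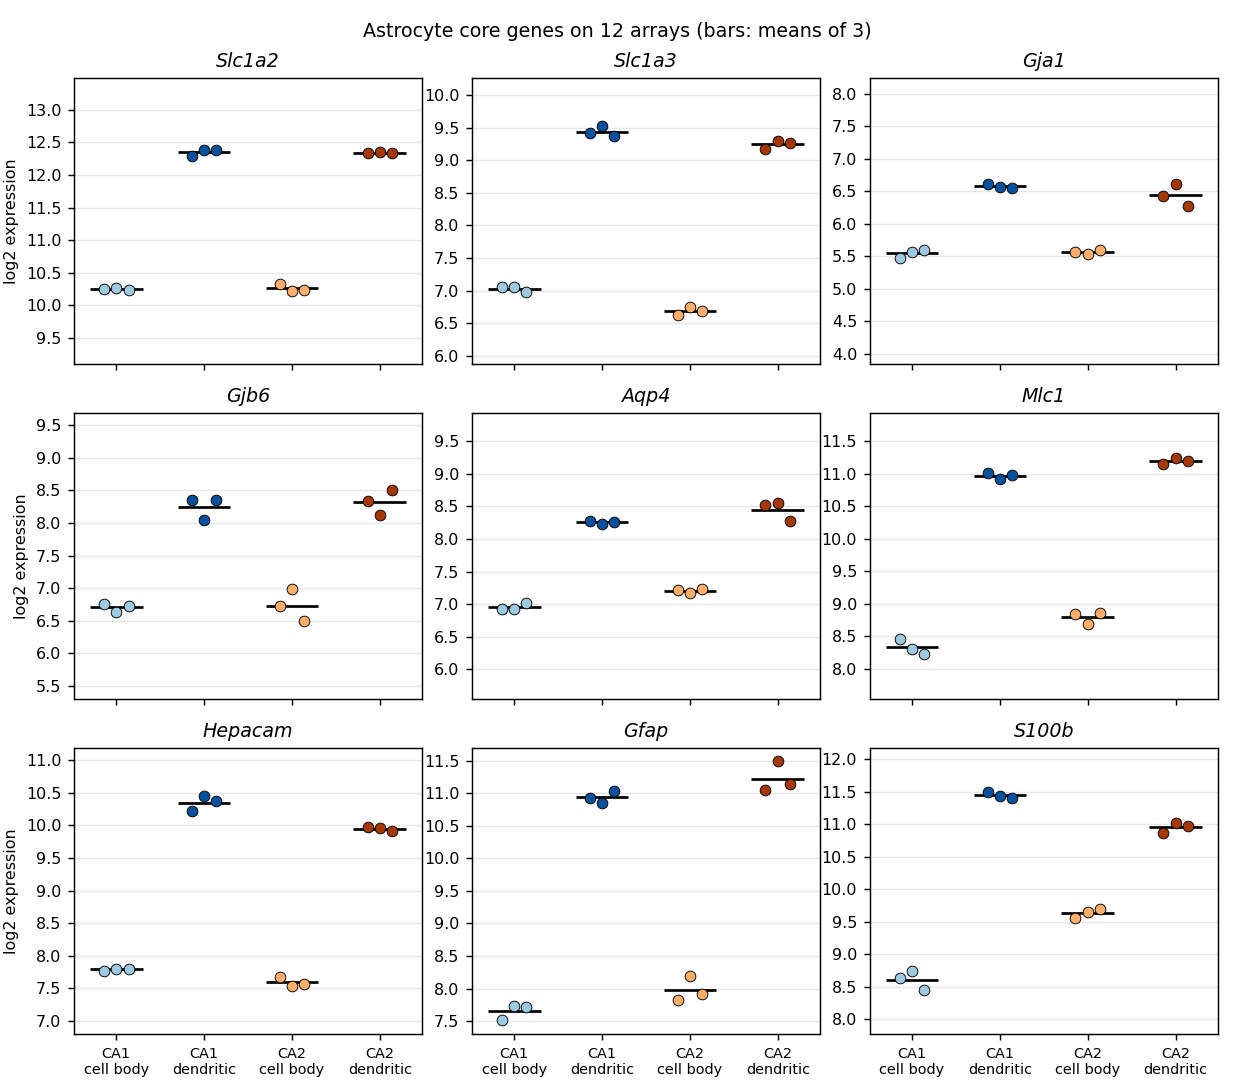
Log2 expression of the 9 members on each of the 12 arrays, 1 panel per gene with y axes of equal span, points for arrays and bars for the mean of 3. In every panel the dendritic arrays lie above the cell body arrays of their region, and in S100b alone the CA2 layers lie visibly closer together than the CA1 layers.

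Slc1a2, the main glutamate transporter of the forebrain, read 10.25, 10.27 and 10.23 in CA1 cell bodies and 12.29, 12.38 and 12.38 in CA1 dendrites. The CA2 values were 10.33, 10.21 and 10.24 against 12.34, 12.36 and 12.33. The layers were thus separated by at least 2 log2 units in each region, and the 4 groups formed 2 levels with no visible step between CA1 and CA2. The layer difference was 2.10 in CA1 (SE 0.063, adjusted p = 1.2e-08) and 2.08 in CA2 (SE 0.063, adjusted p = 1.3e-08).

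Slc1a3, the transporter also found in radial glia, read 7.06, 7.05 and 6.97 in the CA1 cell body layer and 9.42, 9.52 and 9.37 in the CA1 dendritic layer. The corresponding CA2 values were 6.62, 6.74 and 6.69 against 9.18, 9.29 and 9.27. Both CA2 groups sat a little under their CA1 counterparts without overlapping them. Its layer difference was 2.41 in CA1 (SE 0.063, adjusted p = 9.7e-09) and 2.56 in CA2 (SE 0.063, adjusted p = 1e-08).

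The other 14 measured genes of glutamate and glutamine handling did not share this direction. In CA1, 6 rose in the dendritic layer, 4 fell and 4 were not called, with a median of 0.07. There 28.3% of all genes rose and 18.5% fell. In CA2, 5 rose, 6 fell and 3 were not called, with a median of -0.10, where 16.2% of all genes rose and 17.8% fell. Slc38a3, a glutamine transporter of astrocytes, rose by 1.53 in CA1 and by 1.72 in CA2. Slc1a1 (EAAC1), the glutamate transporter of neurons, went the opposite way to its astrocyte relatives: it read 9.74 to 9.76 in the CA1 cell body layer and 8.15 to 8.32 in the CA1 dendritic layer, a fall by 1.49 (adjusted p = 1.8e-07), and it fell by 1.31 in CA2. The transaminase Got1 fell by 0.98 in CA1 and by 0.99 in CA2. Without the 3 arrays that carry oocyte transcripts, 4 of the 14 rose and 4 fell in CA2.

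Gjb6, which joins astrocytes to each other, read 6.75, 6.63 and 6.73 in the CA1 cell body layer and 8.35, 8.05 and 8.35 in the CA1 dendritic layer, and in CA2 it read 6.72, 6.98 and 6.49 against 8.34, 8.12 and 8.50. Its arrays were the most scattered of the members in the CA2 cell body layer (SD 0.25), yet the layers stayed at least 1.14 apart. Gjb6 was higher in the dendritic layer by 1.55 in CA1 (SE 0.14, adjusted p = 9.7e-06) and by 1.59 in CA2 (SE 0.14, adjusted p = 8e-06).

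Gja1 read 5.48, 5.57 and 5.60 in the CA1 cell body layer and 6.61, 6.56 and 6.55 in the CA1 dendritic layer. In CA2 it read 5.57, 5.54 and 5.60 against 6.42, 6.61 and 6.28. The cell body values lay just under the median of all features on these arrays (5.68 to 5.88). They lay above the mean of the external control features (5.19 to 5.37). Whether such low readings narrowed the differences of Gja1 was not tested. The difference, 1.02 in CA1 (SE 0.083, adjusted p = 5e-06) and 0.87 in CA2 (SE 0.083, adjusted p = 1.6e-05), was the smallest measured among the members in both regions.

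Among 9 other connexins and pannexins, 5 rose and 1 fell in CA1 and 4 rose and 1 fell in CA2. The shares of all genes were 28.3% and 18.5% in CA1, and 16.2% and 17.8% in CA2. Gjc3, a connexin of oligodendrocytes, rose by 1.95 in CA1 and by 1.85 in CA2. Panx2 rose by 1.19 and by 0.74, and Panx1 fell by 0.23 in CA1 and by 0.43 in CA2. With the oocyte-marked arrays left out, 3 of the 9 rose and 0 fell in CA2. The interaction called 0 of these 9, where it called 11.6% of all genes.

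Mlc1, the protein affected in megalencephalic leukoencephalopathy, read 8.46, 8.31 and 8.23 in the CA1 cell body layer and 11.01, 10.91 and 10.97 in the CA1 dendritic layer. In CA2 it read 8.84, 8.69 and 8.85 against 11.14, 11.24 and 11.20. The arrays of both layers read higher in CA2 than in CA1, and the layers were far apart in each region. Its layer difference was 2.63 in CA1 (SE 0.076, adjusted p = 1e-08) and 2.40 in CA2 (SE 0.076, adjusted p = 1.5e-08).

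Hepacam (GlialCAM), the adhesion protein that brings Mlc1 to cell contacts, read 7.77, 7.80 and 7.80 in the CA1 cell body layer and 10.22, 10.45 and 10.37 in the CA1 dendritic layer. Its CA2 values were 7.67, 7.54 and 7.56 against 9.97, 9.96 and 9.91. Here the arrays of both layers read lower in CA2 than in CA1, the reverse of Mlc1. The layer difference was 2.56 in CA1 (SE 0.074, adjusted p = 1e-08) and 2.36 in CA2 (SE 0.074, adjusted p = 1.5e-08), close to that of its partner in each region.

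Aqp4 read 6.92, 6.93 and 7.02 in the CA1 cell body layer and 8.27, 8.23 and 8.26 in the CA1 dendritic layer. In CA2 it read 7.22, 7.17 and 7.23 against 8.52, 8.56 and 8.27. The layers did not overlap in either region, and the water channel gene rose by 1.30 in CA1 (SE 0.082, adjusted p = 1e-06) and by 1.24 in CA2 (SE 0.082, adjusted p = 1.1e-06).

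The 15 other measured genes of the endfoot, which include its dystrophin-linked anchor and its potassium channel, were mixed. In CA1, 8 rose, 3 fell and 4 were not called, and in CA2, 6 rose, 2 fell and 7 were not called. Over all genes 28.3% rose and 18.5% fell in CA1, and 16.2% rose and 17.8% fell in CA2. Kcnj10 (Kir4.1), the potassium channel that lies beside Aqp4, rose by 2.30 in CA1 and by 2.07 in CA2, and utrophin (Utrn) rose by 2.37 and by 2.42. Dystrophin (Dmd), also made by pyramidal neurons, fell by 1.56 in CA1 and by 0.46 in CA2. With the oocyte-marked arrays left out, 5 of the 15 rose and 0 fell in CA2.

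Gfap read 7.51, 7.73 and 7.72 in the CA1 cell body layer and 10.92, 10.85 and 11.04 in the CA1 dendritic layer. In CA2 it read 7.83, 8.20 and 7.92 against 11.05, 11.49 and 11.14. The layers were separated by at least 3.12 in CA1 and 2.85 in CA2, wider than in any other member. The difference of 3.28 in CA1 (SE 0.10, adjusted p = 1.5e-08) and of 3.24 in CA2 (SE 0.10, adjusted p = 1.6e-08) was the fifth largest rise of the 30142 genes in each region.

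Of 9 other intermediate filament genes, 3 rose and 3 fell in CA1, and 3 rose and 4 fell in CA2. Among all genes, 28.3% rose and 18.5% fell in CA1, and 16.2% rose and 17.8% fell in CA2. Those that rose include Vim, by 1.88 and by 1.98, and Nes, by 0.61 and by 0.82, both known from immature and reactive astrocytes and from vessels. The neuronal filament genes Ina and Nefm fell by 1.02 and by 0.91 in CA1 and by 1.20 and by 1.51 in CA2. Of 27 genes used as markers of reactive astrocytes, 18 rose and 2 fell in CA1, and 13 rose and 4 fell in CA2. Srgn rose by 0.97 and by 0.93, and Serpina3n, induced in reactive astrocytes, fell by 1.90 in CA1 and by 1.74 in CA2. Vim also stands in this list. Several of these genes are expressed by vessels and neurons as well. The CA2 counts without the oocyte-marked arrays were 2 higher and 4 lower of the 9 filament genes and 11 higher and 4 lower of the 27.

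S100b read 8.63, 8.74 and 8.45 in the CA1 cell body layer and 11.50, 11.43 and 11.40 in the CA1 dendritic layer. In CA2 it read 9.56, 9.65 and 9.69 in the cell body layer and 10.86, 11.02 and 10.97 in the dendritic layer. The CA2 cell body arrays were all above the CA1 cell body arrays, while the CA2 dendritic arrays were all below the CA1 dendritic arrays. The layer difference was 2.84 in CA1 (SE 0.081, adjusted p = 1e-08), a 7.14-fold rise, and 1.32 in CA2 (SE 0.081, adjusted p = 7.4e-07), a 2.49-fold rise. Among the members it had the second largest difference in CA1 and the seventh largest in CA2.

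S100b was the only member whose layer difference was called different between the regions. The difference between the layer differences (CA2 minus CA1) was -1.52 (SE 0.12, 95% interval -1.78 to -1.26, adjusted p = 5.5e-05 by limma), so the dendritic rise was 2.87-fold smaller in CA2. Of all genes, 11.6% were called in this comparison (6.81% with a smaller and 4.81% with a larger difference in CA2), and S100b had the 65th most negative value of the 30142. For the other 8 members the comparison was not called. Their values and 95% intervals were -0.23 for Mlc1 (-0.47 to 0.01), -0.20 for Hepacam (-0.43 to 0.03) and -0.16 for Gja1 (-0.42 to 0.10). They were 0.15 for Slc1a3 (-0.05 to 0.35), -0.05 for Aqp4 (-0.31 to 0.20) and -0.04 for Gfap (-0.37 to 0.29). For Gjb6 the value was 0.04 (-0.39 to 0.48) and for Slc1a2 -0.02 (-0.21 to 0.18). The intervals of these 8 genes stop short of the value of S100b, but they leave room for smaller differences. S100b was called in all 15 analyses that left out 1 array or 1 replicate number. With the oocyte-marked arrays left out, and so with 1 CA2 dendritic array, its value was -1.71 (adjusted p = 0.011, with the spread taken from the other groups).

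**Figure D2:**
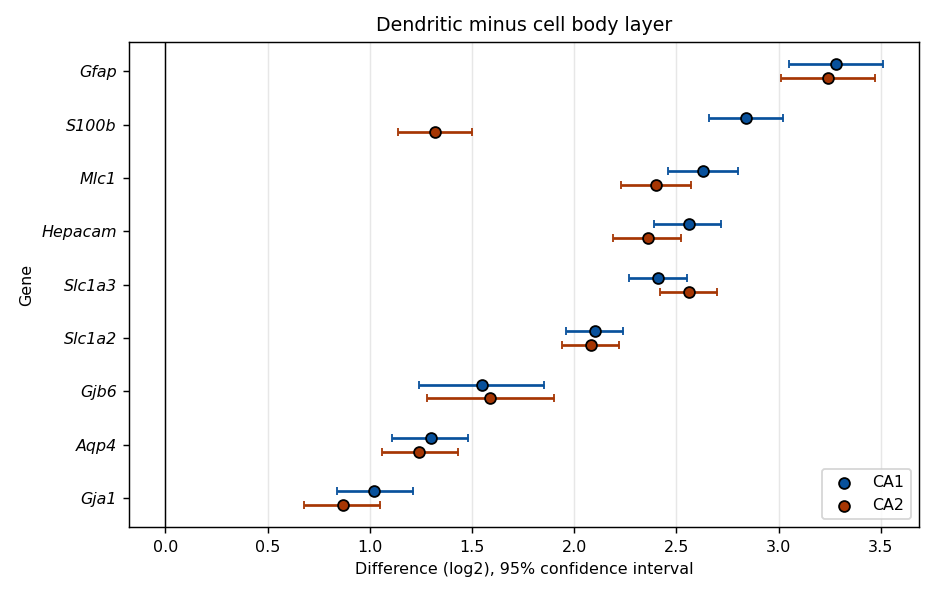
Dendritic minus cell body layer difference (log2) of each member in CA1 and in CA2, with points for the fitted difference and bars for its 95% interval. For 8 members the values of CA1 and CA2 lie within 0.23 of each other, and for S100b they are 2.84 and 1.32.

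Because S100b is also known from oligodendrocyte lineage cells, the markers of those cells are given beside it. Of 14 oligodendrocyte genes, 13 rose in the dendritic layer in each region, with medians of 1.36 and 1.33. Over all genes, 28.3% were called higher in CA1 and 16.2% in CA2. The interaction called 0 of the 14 (median 0.01). It called 11.6% of all genes, so a count of 0 among 14 lies near that share. In the cell body layer their mean level was 6.97 to 7.09 for CA1 and 7.53 to 7.60 for CA2. In the dendritic layer it was 8.18 to 8.45 for CA1 and 8.76 to 8.93 for CA2, so CA2 was higher in both layers. S100b followed that order between regions in the cell body layer and not in the dendritic layer. Of 10 genes of oligodendrocyte precursors, 9 rose in the dendritic layer in each region. The interaction called 1 of them higher, Tnr at 0.91, and 3 lower, among them Vcan at -1.56 and Lhfpl3 at -0.56. Leaving out the oocyte-marked arrays, 12 of the 14 and 5 of the 10 rose in CA2, and the interaction called 0 of the 14 and 1 of the 10, lower. The part of either cell type in the S100b values was not tested.

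The 41 other astrocyte genes of the marker list moved with the members between the layers. All 41 rose in CA1 (median 1.78) and 40 rose in CA2 (median 1.69), beside 28.3% and 16.2% of all genes. The exception in CA2 was Fjx1, at 0.06 (adjusted p = 0.63). Gpr37l1, an astrocyte receptor, rose by 2.63 and by 2.55, and Ndrg2 rose by 2.46 and by 2.32. Without the arrays that carry oocyte transcripts, 36 of the 41 were called higher in CA2. The interaction called 3 higher and 4 lower of the 41, beside 4.81% and 6.81% of all genes. Ntsr2, a neurotensin receptor of astrocytes, had the smallest p among the 7: its dendritic rise was 2.16 in CA1 and 0.95 in CA2, a difference of -1.21 (SE 0.086, adjusted p = 3.6e-05). Cell body arrays read 9.0 to 9.12 for CA1 and 10.17 to 10.22 for CA2. The glutamate receptor Grm3 (0.97) and the sodium pump subunit Atp1b2 (0.90) differed the other way. Without the arrays that carry oocyte transcripts, 2 of the 41 were called higher and 1 lower.

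Of 16 transcription factors known from astrocytes, 14 rose and 0 fell in CA1 (median 0.90), and 11 rose and 1 fell in CA2 (median 0.58). The shares of all genes were 28.3% higher and 18.5% lower in CA1, and 16.2% higher and 17.8% lower in CA2. Sox9, which also stands in the astrocyte list, rose by 2.14 and by 1.99, and Id2 rose by 2.32 and by 2.54. Nfia rose by 0.91 and by 0.87, whereas Nfib fell by 0.20 in CA2. Leaving out the oocyte-marked arrays, 8 rose and 0 fell in CA2 (median 0.50). The interaction called 6 of the 16, all with a smaller rise in CA2, including Rorb (-0.94) and Stat3 (-0.56). It called 6.81% of all genes in that direction. Once those arrays were left out it called 0 of the 16, where 2.32% of all genes were called, and the list's median went from -0.15 to -0.22.

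The members were not alone in rising. All 18 microglia genes and all 16 endothelial genes rose in the dendritic layer in both regions, with medians of 2.41 and 1.85 for microglia and 2.07 and 1.94 for endothelium. All 12 genes of mural cells rose as well. The interneuron list of 14 had 12 genes higher and 1 lower in CA1, and 10 higher and 0 lower in CA2. Among all genes, 28.3% rose and 18.5% fell in CA1, and 16.2% rose and 17.8% fell in CA2. Of 14 pyramidal neuron genes, 12 fell in CA1 (median -0.88) and 13 fell in CA2 (median -1.21), and Camk2a, whose RNA is known from dendrites, was the 1 that rose. The CA2 counts without the oocyte-marked arrays were 17 of 18 microglia, 14 of 16 endothelial, 9 of 12 mural and 8 of 14 interneuron genes higher, and 12 of 14 pyramidal neuron genes lower. The list means by group did not overlap between the layers for any of the microglia, endothelial, oligodendrocyte and pyramidal neuron lists. For pyramidal neurons they were 10.67 to 10.75 and 9.48 to 9.64 in CA1. The mean over the 9 members was 7.64 to 7.67 against 9.82 to 9.85 in CA1 and 7.81 to 7.86 against 9.76 to 9.85 in CA2. The part of cell makeup in the members' differences was not tested.

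**Figure D3:**
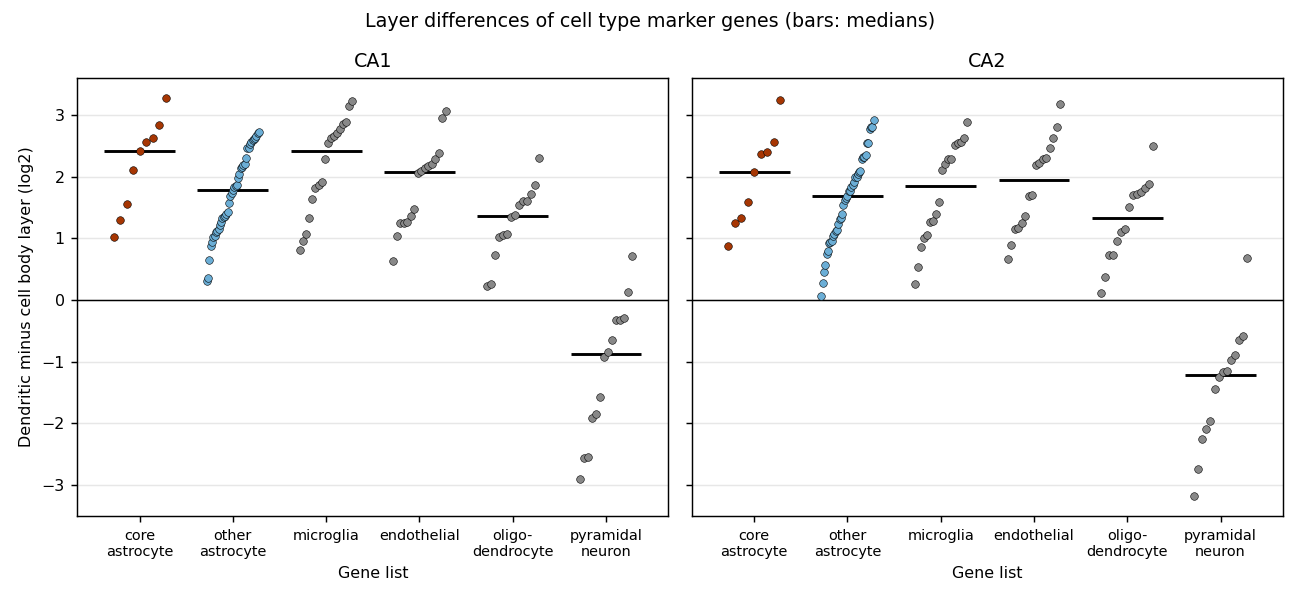
Dendritic minus cell body layer difference (log2) of every measured gene in 6 cell type lists, in CA1 and in CA2, with points for genes and bars for list medians. The members (medians 2.41 and 2.08) lie among the microglia and endothelial genes, and pyramidal neuron genes lie mostly below 0.

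Set against CA1, the members had no common direction in CA2. Apart from S100b, whose cell body layers differed by 1.03, no member differed by more than 0.46 between the regions. In the cell body layer, 3 of 9 were called higher in CA2 and 1 lower, where 10.6% of all genes were called higher and 10.5% lower (21.1% in either direction). S100b was higher by 1.03 (SE 0.081, 95% interval 0.85 to 1.21, adjusted p = 1.5e-05), a 2.04-fold difference. Mlc1 was higher by 0.46 (adjusted p = 0.0018) and Slc1a3 lower by 0.34 (adjusted p = 0.0033), and in both genes the arrays of the regions did not overlap. Gfap was higher by 0.33 at an adjusted p of 0.047. That call was lost in 13 of 25 alternatives, among them the analysis without the arrays that carry oocyte transcripts (0.37, adjusted p = 0.089). The 5 others were Aqp4 at 0.25 (adjusted p = 0.055), Hepacam at -0.20 (0.088), Gjb6 at 0.03 (0.93), Gja1 at 0.02 (0.91) and Slc1a2 at 0.01 (0.94). The interval of Slc1a2 ran from -0.13 to 0.15.

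In the dendritic layer, 1 of 9 was called higher in CA2 and 3 lower, beside 11.6% and 18.6% of all genes (30.2% in either direction). S100b was lower by 0.49 (SE 0.081, 95% interval -0.67 to -0.31, adjusted p = 0.002), the opposite of its direction in the cell body layer. Hepacam was lower by 0.40 (adjusted p = 0.0038), and its CA2 arrays (9.91 to 9.97) all lay below its CA1 arrays (10.22 to 10.45). Slc1a3 was lower by 0.19 (adjusted p = 0.046) and Mlc1 higher by 0.23 (adjusted p = 0.045). With the oocyte-marked arrays left out, CA2 dendrites are a single array and the spread comes from the other groups. S100b was then at -0.62 (adjusted p = 0.042). Hepacam was at -0.30 (adjusted p = 0.16), Slc1a3 at -0.27 (0.18) and Mlc1 at 0.09 (0.66). The uncalled members were Gfap at 0.29 (0.058), Aqp4 at 0.20 (0.091), Gja1 at -0.14 (0.22), Gjb6 at 0.07 (0.71) and Slc1a2 at -0.01 (0.94).

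**Figure D4:**
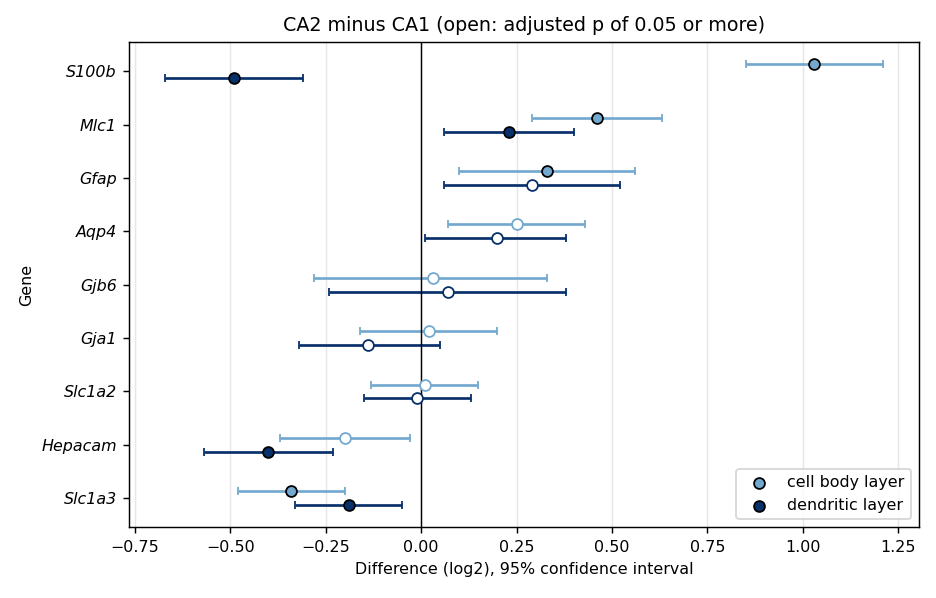
CA2 minus CA1 difference (log2) of each member in the cell body layer and in the dendritic layer, with points for fitted differences, bars for 95% intervals and open points for an adjusted p of 0.05 or more. S100b lies at 1.03 in the cell body layer and -0.49 in the dendritic layer, and Slc1a2 lies at 0.01 and -0.01.

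These regional values depend on how arrays of the 2 runs are scaled. Centring each array on its median moved the median over all genes by 0.10 in the cell body layer and by 0.11 in the dendritic layer. The share of called genes that were higher in CA2 went from 50.3% to 74.3% in the cell body layer and from 38.3% to 70.3% in the dendritic layer. With quantile normalisation of the 12 arrays the shares were 70.4% and 56.4%. S100b kept its direction and its call in both layers under each of the 25 alternatives. The direction of Slc1a2 in the dendritic layer turned, to 0.10 with centring and 0.02 with quantile normalisation.

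Astrocyte genes outside the members differed between the regions more often upward. Of the 41, 18 were called higher in CA2 and 3 lower in the cell body layer (median 0.20). In the dendritic layer 14 were called higher and 1 lower (median 0.15). The shares of all genes were 10.6% higher and 10.5% lower in the cell body layer, and 11.6% and 18.6% in the dendritic layer. Region and run cannot be told apart here, and median centring moved the all-gene medians by 0.10 and 0.11. Fabp7, a fatty acid-binding protein of radial glia and astrocytes, was higher in CA2 by 1.34 in the cell body layer and by 1.06 in the dendritic layer. The bicarbonate transporter Slc4a4 was higher by 0.85 and by 0.65, and Grm3 was lower by 1.55 and by 0.58. Without the arrays that carry oocyte transcripts, 17 were called higher and 2 lower in the cell body layer, and 4 higher and 0 lower in the dendritic layer, with medians of 0.21 and 0.13. Oligodendrocyte genes were called higher in CA2 in 11 of 14 cases in the cell body layer and 10 of 14 in the dendritic layer, and 14 of 18 microglia genes were called lower in the CA2 dendritic layer. With the oocyte-marked arrays left out, these counts were 7 and 4 of 14 and 5 of 18, where the share of all genes called was also lower (15.7% and 6.36%). The list medians moved little: from 0.55 to 0.56 and from 0.54 to 0.58 for oligodendrocytes, and from -0.45 to -0.46 for microglia.

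Over the 12 arrays, the members lay at different distances from their mean profile. Slc1a2 lay closest to their mean centred profile, at a root mean square distance of 0.0748 log2 units, and Gfap, with its wider swing, lay farthest, at 0.62. S100b lay at 0.346 and Gja1 at 0.572. The profile is the mean of these same 9 members, so each member is part of it. Among the 12093 other genes with a mean of at least 7, those nearest to the profile were S1pr1 (0.0859), Pltp (0.0953), Sparc (0.114), Daam2 (0.114) and Fam107a (0.12). They were followed by Naaa (0.122), Gstm1 (0.122), Tgfbr1 (0.123), Mtss2 (0.131) and Emp2 (0.137). Of these 10 genes, S1pr1 alone stands in the astrocyte list, and its layer differences were 2.04 in CA1 and 2.09 in CA2. Among the 12093 genes, 0 were closer to the profile than Slc1a2. However, 127 were closer than Mlc1, the next closest member, and 774 were closer than Gfap. The arrays share libraries and layers, so this is a description of likeness in these 12 arrays. Within groups, CA2 dendritic array 2 had 8 of 9 members above its group mean, by 0.06 on average and by 0.26 for Gfap, and the other 11 arrays had 3 to 6 of 9.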

How the data were processed

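RNA of 12 laser-captured pieces (4 groups of 3) was hybridised to Affymetrix arrays. The authors deposited log2 values from RMA (background correction, normalisation and summary of probes), as the submitters' processing notes name it. Which software made them, and whether both runs were normalised together, is not given in the sources used here. Such normalisation can raise dim features and narrow differences near background.

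Of 72688 features, 30604 had 1 gene symbol in the platform annotation, 2146 had several and 39938 were unnamed here. Symbols were updated through Entrez identifiers (22815 matched, 827 changed), and the feature with the highest mean was kept for the 355 genes with several, leaving 30142 genes.

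All genes were fitted with limma 3.58.1 in R 4.3.3 (lmFit, eBayes) over 12 arrays, with a mean for each of 4 groups and a fixed block for the replicate number. Tests were two-sided, p-values were adjusted by Benjamini-Hochberg over 30142 genes, and a gene was called under 0.05. The fit was tested on simulated data with 200 changed genes: for the interaction it recovered 81% of changes of 0.5 log2 and 100% of changes of 1. The simulated noise was independent, with an SD of 0.1 log2 for every gene and no array or replicate effect. These rates do not hold for genes that vary more, such as Gjb6 (SD 0.25 in CA2 cell bodies) and Gfap (0.23 in CA2 dendrites). The protocols tie 4 pieces to each of 3 mice, but no label says that the number is the mouse. Of 18 same-number pairs of arrays, 1 had deviations from group means correlating above 0.1 (range -0.346 to 0.132). Among the 36 pairs from different groups with different numbers, the highest correlation was 0.251. If the numbers do not stand for mice, p-values measure the spread between these samples only.

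The members, gene lists and tests were chosen with earlier results of these data known. All members are named. From each list, genes were named from the 4 with the smallest p among those called in a comparison, and those called against the direction of most of their list. Fjx1, named as the only uncalled gene, was chosen after its values were seen. Likeness is the root mean square difference from the mean centred member profile, among genes with a mean of at least 7. Promoter sequences are from RefSeq (GRCm38.p6). The 25 alternatives covered the block, scaling, filtering, samples fitted, array weights, moderation and leaving out arrays. Counts of list genes without the 3 arrays with oocyte transcripts were added after seeing the data.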

Additional observations from a re-analysis of the deposited data

Results flagged for a closer look

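The layer difference of S100b differed between CA2 and CA1, by -1.52 on the log2 scale (CA2 minus CA1, adjusted p = 5.5e-05 by limma), in a test of the difference itself. All 3 CA2 cell body arrays read above all 3 CA1 cell body arrays, and all 3 CA2 dendritic arrays read below all 3 CA1 dendritic arrays. Oligodendrocyte lineage markers are given beside this result in the report, and their part in it was not tested.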

How the results depend on the processing

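Leaving out the 3 arrays that carry oocyte transcripts leaves 1 CA2 dendritic array, assumed to vary like the other groups. The counts of members called between layers stayed at 9 in CA1 and 9 in CA2 under all 25 alternatives, and every member kept its direction there. The interaction count stayed at 1 except with quantile normalisation (3, adding Mlc1 at -0.39 and Hepacam at -0.33), and ranged from 1 to 1 on leaving out arrays. In the cell body layer the count of 4 members between regions ranged from 2 to 5 on leaving out arrays. In the dendritic layer the count of 4 fell to 2 with quantile normalisation, 1 with only the groups compared, 2 with array weights and 1 without the arrays that carry oocyte transcripts, and ranged from 1 to 4 on leaving out arrays. The cause of these changes was not tested.

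In the cell body layer, Gfap lost its call without replicate 1, 2 or 3, without any single cell body array of either region and without CA2 dendritic array 1 or 3 (adjusted p 0.052 to 0.20). Slc1a3 lost its call without replicate 1 (-0.29, adjusted p = 0.061) and Mlc1 without replicate 3 (0.38, 0.050). Aqp4 gained a call without CA2 dendritic array 2 (0.25, 0.046) or 3 (0.25, 0.018), and Hepacam without CA1 dendritic array 1 (-0.20, 0.045). In the dendritic layer, Hepacam lost its call without replicate 2 (-0.35, 0.057) or 3 (-0.37, 0.050). Mlc1 and Slc1a3 there were called in 3 and 1 of the 15 analyses that left out arrays, with values of 0.18 to 0.29 and -0.24 to -0.16, while S100b was called in 15 of 15. Aqp4 gained a call without replicate 3 (0.29, 0.047) or CA2 dendritic array 3 (0.30, 0.017), and Gfap without CA1 dendritic array 3 (0.36, 0.046).

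Directions that turned were those of values near 0. For the interaction these were Gjb6 at -0.04 with quantile normalisation, and, without the arrays that carry oocyte transcripts, Aqp4 at 0.04, Gjb6 at -0.05 and Slc1a2 at 0.06. Leaving out arrays gave interaction ranges of -0.12 to 0.05 for Aqp4, -0.18 to 0.03 for Gfap, -0.13 to 0.25 for Gjb6 and -0.06 to 0.03 for Slc1a2. Between regions, Slc1a2 was at -0.04 in the cell body layer without the arrays that carry oocyte transcripts, and at 0.02 (quantile normalisation), 0.10 (median centring) and 0.02 (without those arrays) in the dendritic layer. Leaving out arrays gave cell body ranges of -0.02 to 0.07 for Gja1, -0.18 to 0.20 for Gjb6 and -0.04 to 0.05 for Slc1a2, and dendritic ranges of -0.04 to 0.17 for Gjb6 and -0.05 to 0.02 for Slc1a2.

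Without the replicate block the member counts stayed at 9, 9, 1, 4 and 4 for the layers of CA1, the layers of CA2, the interaction, the cell body layers and the dendritic layers. In the cell body layer Gfap lost its call (0.33, adjusted p = 0.079) and Aqp4 gained one (0.25, 0.031), and no other member's call changed. Over all genes, the interaction called 3504 genes and 699 without the arrays that carry oocyte transcripts (697 to 2312 in 10 analyses that left out arrays). The layers of CA2 went from 10251 to 5707 without those arrays. The cell body layers went from 6367 to between 3451 and 4147 in 3 analyses that left out arrays. The dendritic layers went from 9105 to 3109 with only the groups compared, 5579 with array weights, 1918 without those arrays and 3663 to 5505 in 3 analyses that left out arrays.

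With 3 arrays a group, differences between regions near 0.2 to 0.3 sit at the limit of what these arrays call.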
